A study of Mus musculus with 9 samples.

Results

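The genes described here encode GSK3, the proteins that bind it and the core of the β-catenin destruction complex. They are the kinase genes Gsk3a and Gsk3b, the GSK3-binding protein genes Frat1, Frat2 and Gskip, and the destruction complex genes Axin1, Apc, Amer1, Csnk1a1 and Btrc. These 10 genes were chosen by symbol for their function and not by a cut on their values, with earlier results of these data known. They are 10 of the 52264 rows of the count table, and all 10 were among the 15366 genes with enough counts to be tested.

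GSK3 is a serine/threonine kinase made from a pair of related genes, Gsk3a for GSK3α and Gsk3b for GSK3β. In the Wnt pathway it works inside the destruction complex. There, Axin and APC hold β-catenin, casein kinase 1α (from Csnk1a1) primes it, GSK3 phosphorylates it further, and the F-box protein β-TrCP (from Btrc) delivers it to the proteasome. FRAT proteins bind GSK3 at the site Axin uses, and GSKIP tethers GSK3 to protein kinase A. In mouse embryonic stem cells, GSK3 inhibition is a standard means of holding the naive state, and stabilised β-catenin is its best known effector.

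RNA sequencing libraries were made from mouse embryonic stem cells with the genotype label beta-catenin-/-, so every group, control included, carries that genotype. All cells were expanded with 3 µM CHIR-99021, 40 ng/ml LIF and 1 µM of the MEK inhibitor PD03, on dishes described as feeder treated, then kept overnight in N2B27. Groups of 3 libraries each received control conditions, BRD0705 or CHIR for 30 min. BRD0705 preferentially inhibits GSK3α, whereas CHIR (CHIR-99021) blocks both enzymes. The labels give neither the doses of this exposure nor how many clones were used, and they do not say whether replicates were separate cultures. The p-values therefore measure the spread between these libraries, which may be technical.

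Libraries held 17359422 to 20773337 counts, and libraries of 1 group differed beyond sampling noise (chi-square per degree of freedom 3.37 to 7.89). Ctnnb1, the gene of the genotype label, had reads in every group, with means of 343 CPM (counts divided by the scaled library size) in control, 329 with BRD0705 and 361 with CHIR. The exons behind these reads cannot be read from gene-level counts, and there was no unedited line to compare with. All 10 embryonic stem cell markers were detected, with summed levels of 5006 to 5105 CPM in control, 5064 to 5210 CPM with BRD0705 and 5195 to 5401 CPM with CHIR. All 10 fibroblast markers, looked at because of the feeder label, were detected too, none at 0, with summed levels of 2170 to 2619 CPM in control, 2764 to 2847 CPM with BRD0705 and 2479 to 2955 CPM with CHIR. In bulk RNA, fewer cells of a type and less RNA per cell cannot be told apart.

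Per kilobase of exon, the members spanned a wide range of levels in the control libraries. Gsk3a was highest at 57.0 ± 6.14 CPM per kb and Csnk1a1 second at 24.7 ± 1.02 CPM per kb (SD, n = 3 each). Axin1 at 9.72 ± 0.556 CPM per kb, Apc at 9.05 ± 0.472 and Gsk3b at 7.98 ± 0.373 (SD, n = 3 each) came next, and the libraries of Axin1 and Apc overlapped. Frat2 at 3.85 ± 0.246 CPM per kb and Frat1 at 3.32 ± 0.258 (SD, n = 3 each) followed, with ranges that overlapped by a small margin. Btrc at 1.93 ± 0.036 CPM per kb, Gskip at 1.65 ± 0.094 and Amer1 at 1.19 ± 0.044 (SD, n = 3 each) were lowest. These values rest on the combined exon length of all annotated transcripts, such as 23923 bp over 76 transcripts for Btrc and 12008 bp over 51 for Csnk1a1, and no other length was tried.

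**Figure D1:**
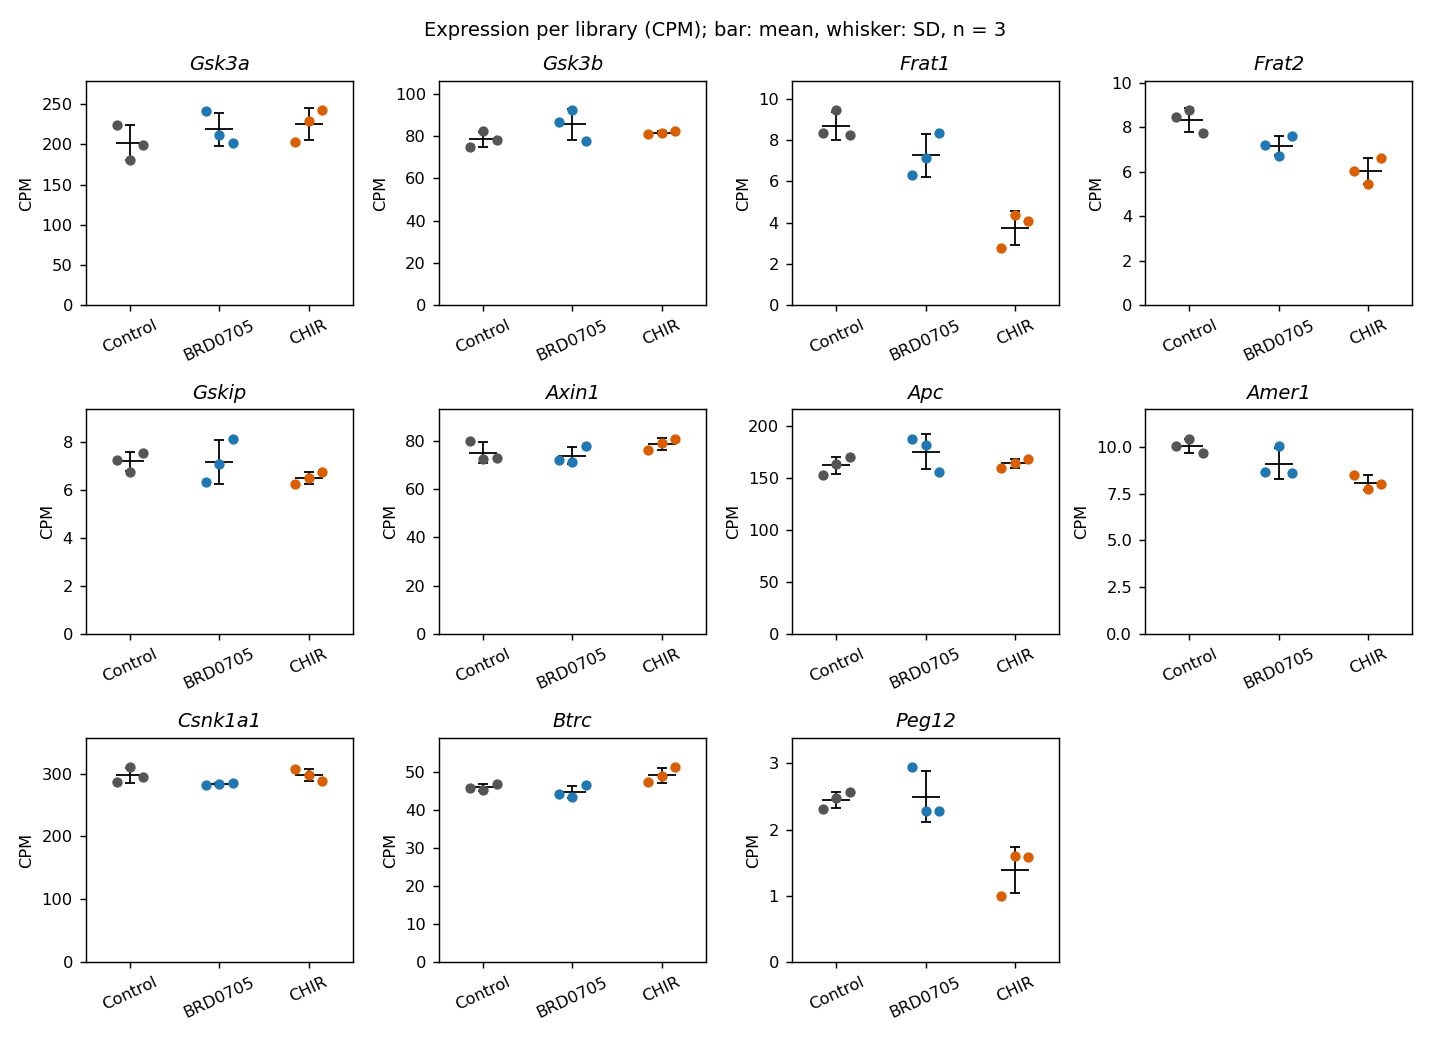
Level of each of the 10 genes, and of the further Frat gene Peg12, in CPM on axes that start at 0, with 1 point per library, a bar at the group mean and whiskers of 1 SD, for control, BRD0705 and CHIR (n = 3 each). The CHIR points of Frat1 (2.79 to 4.35 CPM) lie below all control points (8.23 to 9.44 CPM), while the points of Gsk3a overlap between groups.

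The comparison of each inhibitor with control asks whether the transcripts of the inhibited enzymes and their partners moved within the exposure. No call was made for either kinase gene. Gsk3a (GRCm38 chr7:25228258-25237851, minus strand, 12 exons) stood at 225, 181 and 199.9 CPM in control replicates 1 to 3, at 242, 212 and 202 CPM with BRD0705 and at 203.5, 229 and 243 CPM with CHIR. The groups overlapped in every pairing. The log2 fold change was 0.12 for BRD0705 (SE 0.081, 95% interval -0.05 to 0.28, edgeR adjusted p 0.524). For CHIR it was 0.16 (SE 0.080, 95% interval -0.01 to 0.32, edgeR adjusted p 0.291). The inhibitors differed from each other by -0.04 on the log2 scale (95% interval -0.21 to 0.13, edgeR adjusted p 0.823).

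Gsk3a counts could include reads of genes on the opposite strand, 9130221H12Rik over 1048 exonic bp and Zfp526 over 31 bp, since strand use in the counting is not stated. These genes had 763 and 3839 counts over all 9 libraries, against 3742 to 4557 for Gsk3a in single control libraries. The order of the control libraries followed their GC trend, while the order within the BRD0705 and CHIR libraries did not in full. This trend is Spearman's rho over genes of each library's departure from the gene mean with GC content. In control replicates 1 to 3 it was 0.187, -0.287 and -0.161. It was 0.279, 0.079 and 0.214 with BRD0705, and -0.106, -0.121 and -0.064 with CHIR. With the GC and length trend removed, an alternative added after seeing the data, the BRD0705 log2 fold change of Gsk3a was 0.044, and without BRD0705 replicate 1 it was 0.038.

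Gsk3b (GRCm38 chr16:38089001-38246084, plus strand, 12 exons) was at 74.9, 82.2 and 78.2 CPM in control. It was at 86.7, 92.2 and 77.6 CPM with BRD0705 and at 80.9, 81.6 and 82.3 CPM with CHIR. The third BRD0705 library lay inside the control range and the other two above it, and the CHIR libraries overlapped the control. The log2 fold changes were 0.12 (SE 0.064, edgeR adjusted p 0.369) and 0.06 (SE 0.064, edgeR adjusted p 0.689). The direct difference between inhibitors was 0.07 (edgeR adjusted p 0.592).

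The balance of both kinase transcripts was set out within each library, as log2 of the Gsk3a to Gsk3b count ratio. It was 1.58, 1.14 and 1.35 in control, 1.48, 1.20 and 1.38 with BRD0705, and 1.33, 1.49 and 1.56 with CHIR. Gsk3a thus had 2.20 to 3.00 times the counts of Gsk3b in each library, not corrected for length, and the groups overlapped. The mean differed from control by -0.0043 with BRD0705 (2-sided exact permutation p 1) and by 0.10 with CHIR (exact permutation p 0.7). With 3 against 3 libraries this test cannot go below 0.1.

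The Frat genes were the members that fell with CHIR. Frat1 lost 57.0% of its level and Frat2 27.5%, while neither passed the test with BRD0705. Frat1 (GRCm38 chr19:41829970-41832583, plus strand) and Frat2 (chr19:41845972-41848132, minus strand) are convergent neighbours, and each has 1 exon. Because edgeR called both genes lower with CHIR, though to unlike extents, their promoters are shown. Any part of these promoters in the fall was not tested. Both are from RefSeq on GRCm38.p6, 250 bases before to 50 after the annotated start, chr19:41829720-41830019 on the plus strand for Frat1 and chr19:41848083-41848382 on the minus strand for Frat2. Capitals mark a stretch of 63 bases that is identical in both, which runs past the start in each.
Frat1: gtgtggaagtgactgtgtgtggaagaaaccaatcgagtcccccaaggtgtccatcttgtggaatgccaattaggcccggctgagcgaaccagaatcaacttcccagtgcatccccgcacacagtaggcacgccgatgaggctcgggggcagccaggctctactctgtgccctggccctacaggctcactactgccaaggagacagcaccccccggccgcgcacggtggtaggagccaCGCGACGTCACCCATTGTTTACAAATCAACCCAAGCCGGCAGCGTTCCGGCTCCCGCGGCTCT
Frat2: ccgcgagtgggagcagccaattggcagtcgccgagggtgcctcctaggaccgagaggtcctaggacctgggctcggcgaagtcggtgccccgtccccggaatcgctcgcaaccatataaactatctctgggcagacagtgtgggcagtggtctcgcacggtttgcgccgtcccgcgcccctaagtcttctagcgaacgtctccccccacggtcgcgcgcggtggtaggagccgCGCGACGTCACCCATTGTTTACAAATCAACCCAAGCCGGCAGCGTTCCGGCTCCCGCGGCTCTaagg
Of 32851 promoters of this length in the table, which holds an entry for 5 of the 10 members, 2 contain the 63 bases, those of Frat1 and Frat2. The stretch holds GACGTCA, a cAMP response element without its first base, which 3.21% of the promoters contain on either strand, and the forkhead motif TGTTTAC, in 3.65%. GACGTCA also lies within the full element TGACGTCA, which is in neither Frat promoter and in 1.79% of all. The TCF/LEF motif CTTTGAT, in 3.73% of promoters, and the GC box GGGCGG, in 35.7%, are in neither window on either strand. These motifs were chosen after the sequence was seen, and a match is a description of letters only.

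Frat1 was at 8.33, 9.44 and 8.23 CPM in control (169, 195 and 167 counts). With BRD0705 it was at 6.31, 7.11 and 8.36 CPM, and with CHIR at 2.79, 4.35 and 4.10 CPM (56, 79 and 75 counts). The 3 CHIR libraries lay below every other library, and the BRD0705 libraries reached into the control range. The log2 fold change with CHIR was -1.22 (SE 0.158, 95% interval -1.55 to -0.88, edgeR adjusted p 0.000168), which ranked 36 by p among all tested genes. With BRD0705 it was -0.25 (SE 0.144, 95% interval -0.55 to 0.05, edgeR adjusted p 0.420). The direct test of the difference put Frat1 higher with BRD0705 than with CHIR by 0.96 (SE 0.162, edgeR adjusted p 0.00130). Both calls were made without any one of the 9 libraries.

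Frat2 was at 8.48, 8.77 and 7.74 CPM in control (172, 181 and 157 counts). With BRD0705 it was at 7.22, 6.71 and 7.598 CPM, and with CHIR at 6.03, 5.45 and 6.61 CPM (121, 99 and 121 counts). The 3 groups did not overlap, with control highest and CHIR lowest. The log2 fold change with CHIR was -0.46 (SE 0.119, 95% interval -0.71 to -0.22, edgeR adjusted p 0.0249), and with BRD0705 -0.21 (SE 0.116, edgeR adjusted p 0.397). The inhibitors differed by 0.25 (95% interval -0.0025 to 0.51, edgeR adjusted p 0.227). The CHIR call for Frat2 was lost in DESeq2 (adjusted p 0.0685). It was also lost without control replicate 1 (edgeR adjusted p 0.0698), control replicate 2 (0.101), CHIR replicate 1 (0.0676) or CHIR replicate 2 (0.128).

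Within each library, log2 of the Frat1 to Frat2 count ratio was -0.03, 0.11 and 0.09 in control, -0.19, 0.08 and 0.14 with BRD0705, and -1.11, -0.33 and -0.69 with CHIR. The CHIR libraries lay below all others, and the BRD0705 libraries overlapped the control. The mean was 0.77 lower with CHIR than in control (exact permutation p 0.1, the smallest that 3 against 3 allows, and 0.3 adjusted over the 6 ratio tests). Against BRD0705 the difference had the same p. Reads shared by the genes could blur the ratio to a small extent, since 2.77% of the 50-base stretches of the Frat1 transcript occur in Frat2, and the longest identical run is 104 bp.

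**Figure D2:**
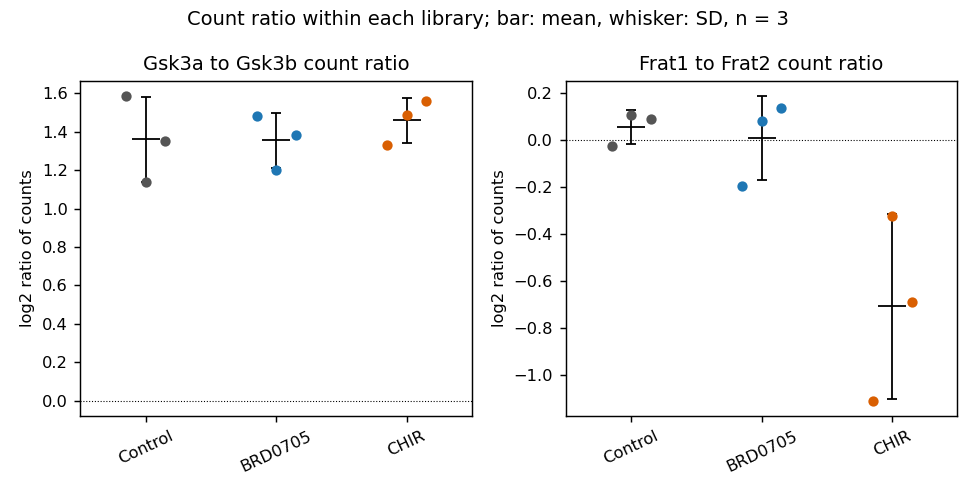
log2 count ratio within each library, Gsk3a to Gsk3b and Frat1 to Frat2, with 1 point per library, a bar at the group mean and whiskers of 1 SD (n = 3 each). The kinase ratios overlap between groups, and the Frat ratios of the CHIR libraries (-1.11 to -0.33) lie below those of control (-0.03 to 0.11).

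The third Frat gene of the mouse, Peg12, also called Frat3, is not a member and was named after its values were seen. It has 1 exon on another chromosome (GRCm38 chr7:62461871-62464510), and none of its 50-base stretches occur in Frat1 or Frat2. Its level was 2.32, 2.47 and 2.56 CPM in control, 2.94, 2.28 and 2.28 CPM with BRD0705, and 0.997, 1.597 and 1.59 CPM with CHIR (20 to 29 counts). The CHIR libraries lay below all others. The log2 fold change with CHIR was -0.82 (SE 0.224, edgeR adjusted p 0.0349), and Peg12 was higher with BRD0705 than with CHIR by 0.85 (SE 0.225, edgeR adjusted p 0.0275; 0.0643 in DESeq2). The CHIR call was lost in DESeq2 (adjusted p 0.0912) and in 5 of the 9 fits without 1 library, those without control replicates 1, 2 or 3 (edgeR adjusted p 0.0634, 0.101 and 0.112) and without CHIR replicates 1 or 2 (0.141 and 0.0593). The Peg12 promoter holds neither the shared stretch nor any of the motifs searched.

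Markers of other cell types are given beside the Frat result. All 10 fibroblast markers had a positive log2 fold change with BRD0705 (median 0.23) and with CHIR (median 0.19), and 1 of 10 was called in each, where 1.22% and 6.3% of all tested genes were. Between inhibitors 6 were positive and 4 negative (median 0.04, none called). Of the 4 tested primitive endoderm markers, 4 were negative with CHIR (median -0.22, none called) and 4 positive between inhibitors (median 0.33, 2 called). The summed level of the full list of 5 was 12.5 to 13.1 CPM in control, 13.4 to 14.6 CPM with BRD0705 and 9.77 to 11.5 CPM with CHIR, none at 0. Of 4 neural markers, 3 were negative with CHIR (median -0.07, 1 called) and 4 positive between inhibitors (median 0.18, 1 called), with summed levels of 105 to 118 CPM in control, 113 to 127 CPM with BRD0705 and 104 to 111 CPM with CHIR. Of the 2 tested early mesoderm markers, 1 was positive and 1 negative with BRD0705 (median 0.20) and with CHIR (median 0.07), none called. Between inhibitors 2 were positive (median 0.13, none called). Summed over the full list of 4, levels were 14.4 to 16.02 CPM in control and 13.5 to 14.5 CPM with BRD0705. With CHIR they were 12.1 to 13.98 CPM, below all control libraries. Mesp1, not among the 2 tested, was at 0 with BRD0705. Of the 10 embryonic stem cell markers, 0 were called with BRD0705 (median -0.03), 2 with CHIR (median 0.03) and 3 between inhibitors (median -0.04). Between inhibitors 7.77% of all tested genes were called. The part of these cell types in the fall of Frat1 and Frat2 was not tested.

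Gskip (GRCm38 chr12:105685352-105703058, plus strand, 3 exons) made no call. Its level was 7.25, 6.73 and 7.54 CPM in control, 6.31, 7.06 and 8.12 CPM with BRD0705, and 6.23, 6.497 and 6.72 CPM with CHIR. The CHIR libraries lay just below the control, and those with BRD0705 spanned it. The log2 fold changes were 0.0020 with BRD0705 (edgeR adjusted p 0.997) and -0.15 with CHIR (edgeR adjusted p 0.563). Gskip shares 482 exonic bp with Atg2b on the opposite strand, whose 10774 counts over all libraries exceed those of Gskip, so its values are uncertain.

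Within the destruction complex edgeR, DESeq2 and limma voom called none of the 5 genes in any of the 3 comparisons. Over all tested genes edgeR called 1.22% with BRD0705, 6.3% with CHIR and 7.77% between inhibitors. At such shares 5 genes may well hold no call. Amer1, which encodes a membrane-bound partner of APC (GRCm38 chrX:95420313-95444840, minus strand, 2 exons), came nearest to a call. It was at 10.1, 10.5 and 9.71 CPM in control, 8.67, 10.1 and 8.64 CPM with BRD0705, and 8.52, 7.76 and 8.04 CPM with CHIR. The CHIR libraries lay below all others. The log2 fold change with CHIR was -0.31 (SE 0.105, 95% interval -0.53 to -0.09, unadjusted p 0.00828, edgeR adjusted p 0.0889).

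The scaffolds were close to level. Axin1 (GRCm38 chr17:26131217-26195811, plus strand) was at 80.2, 72.5 and 73.03 CPM in control, 72.4, 71.4 and 77.9 CPM with BRD0705, and 76.4, 79.2 and 81.02 CPM with CHIR. Apc (chr18:34220297-34322190, plus strand) was at 153, 164 and 170.2 CPM in control, 188, 182 and 156 CPM with BRD0705, and 159.9, 164 and 169 CPM with CHIR. All groups overlapped for both genes. With CHIR the log2 fold change was 0.07 for Axin1 (edgeR adjusted p 0.585) and 0.02 for Apc (edgeR adjusted p 0.927), and with BRD0705 -0.03 (0.889) and 0.11 (0.430).

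No test was passed for the priming kinase or the F-box protein either. Csnk1a1 (GRCm38 chr18:61554236-61590320, plus strand) was at 286, 310.1 and 295 CPM in control, 281, 283 and 284 CPM with BRD0705, and 307, 297 and 288 CPM with CHIR. The BRD0705 libraries lay just below both other groups, with log2 differences of -0.07 against each (edgeR adjusted p 0.537 against control and 0.426 against CHIR). Btrc (chr19:45363688-45533343, plus strand) was at 45.99, 45.3 and 47.01 CPM in control, 44.2, 43.6 and 46.6 CPM with BRD0705, and 47.5, 48.9 and 51.4 CPM with CHIR. The CHIR libraries lay above all others, by 0.10 on the log2 scale against control (edgeR adjusted p 0.385). Between inhibitors the Btrc difference was -0.13 (unadjusted p 0.0320, edgeR adjusted p 0.172).

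**Figure D3:**
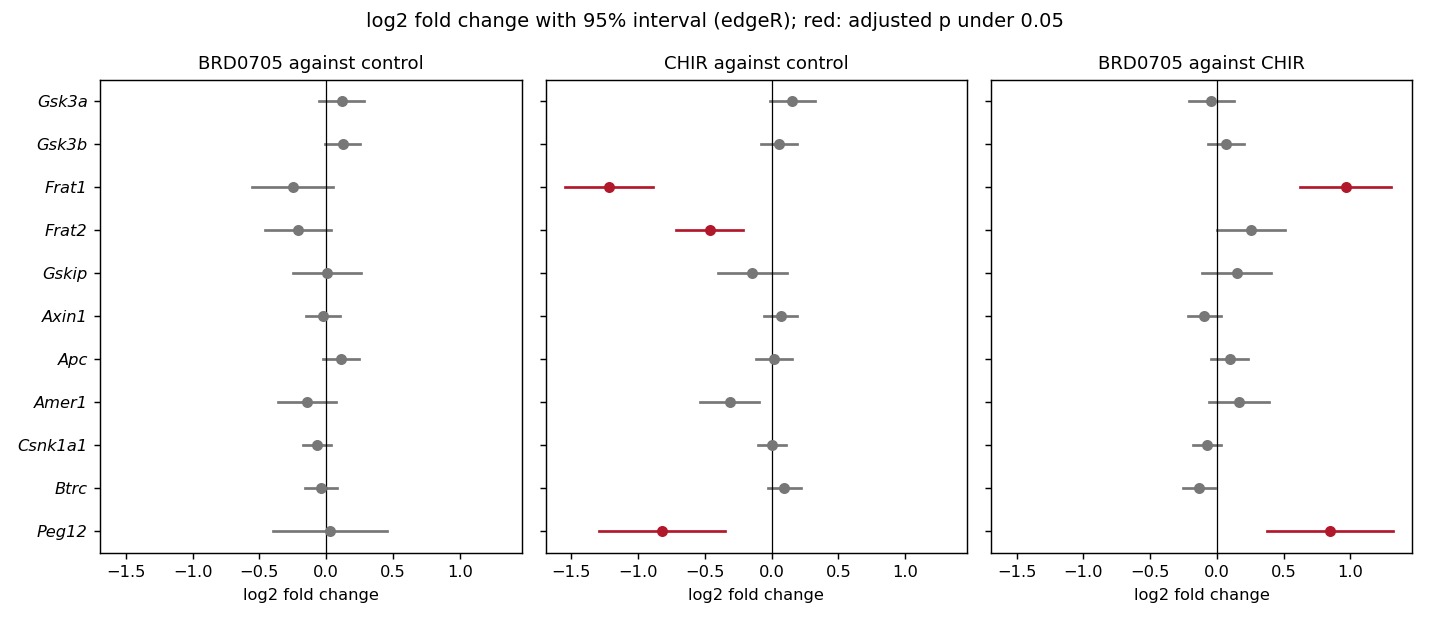
log2 fold change of the 10 genes and Peg12 in the 3 comparisons, as points with 95% intervals from edgeR, red where the adjusted p was under 0.05. In CHIR against control the intervals of Frat1 (-1.55 to -0.88) and Frat2 (-0.71 to -0.22) lie below 0 and both passed the adjusted threshold, while that of Amer1 (-0.53 to -0.09) lies below 0 without passing it.

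Counted together, 0 of the 10 members passed with BRD0705 against control in edgeR, DESeq2 or limma voom, and 0 had an unadjusted p under 0.05 in edgeR. Of all tested genes, 1.22% passed in that comparison, and 2436 of 15366 had an unadjusted p under 0.05 in edgeR. The groups did not overlap for 2 members, Frat2 and Csnk1a1, against 20.2% of all tested genes. With CHIR against control, 2 members passed, Frat1 and Frat2, both lower. The share called over all genes was 6.3%, and 3.78% were called lower. An unadjusted p under 0.05 in edgeR was reached by 3 members, beside 3148 of all 15366 tested genes. The groups did not overlap for 5 of the 10, against 25.1% of all tested genes. DESeq2 called Frat1 alone among the members, and limma voom both.

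Between the inhibitors 1 member passed, Frat1, higher with BRD0705. Over all genes 7.77% passed and 4.8% were higher with BRD0705. An unadjusted p under 0.05 in edgeR was reached by 2 members, beside 3452 of all 15366 tested genes. The groups did not overlap for 5 members, against 26.7% of all tested genes. The median log2 fold change of the 10 members was -0.03 with BRD0705, 0.01 with CHIR and 0.08 between inhibitors, beside -0.0038, -0.0091 and 0.0038 for all tested genes. Both inhibitor comparisons share the control libraries, so their values are not independent of each other.

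**Figure D4:**
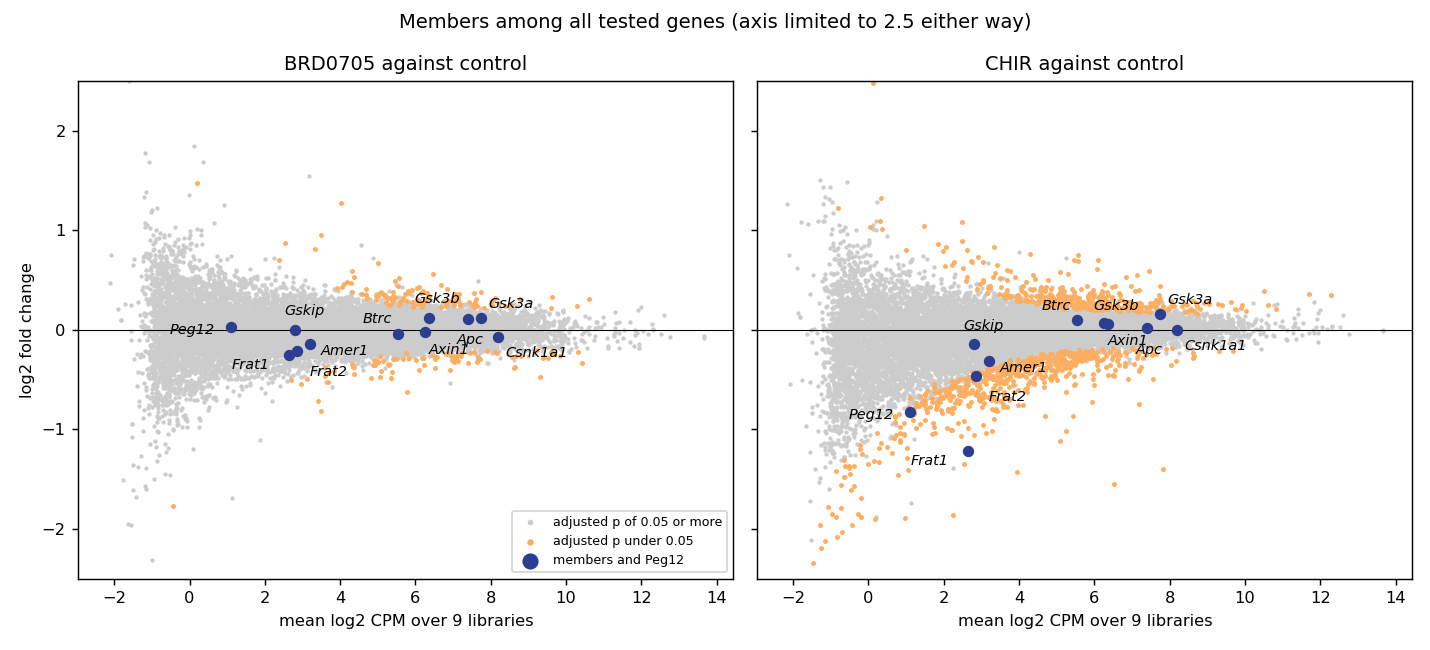
log2 fold change against mean log2 CPM for the 15366 tested genes, in BRD0705 against control and CHIR against control, with genes past the adjusted threshold in orange and the 10 members and Peg12 in blue; the axis stops at 2.5 either way. Frat1 lies at -1.22 with CHIR and -0.25 with BRD0705, and the kinase genes Gsk3a (0.16 and 0.12) and Gsk3b (0.06 and 0.12) lie near 0.

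The other genes of the pathway were taken from lists chosen by function. Of 24 further destruction complex partners, 22 were tested (Amer2 and Amer3 had too few counts), and edgeR called 0 in each of the 3 comparisons. At an unadjusted p under 0.05 there were 4 with BRD0705, 4 with CHIR and 6 between inhibitors, beside 2436, 3148 and 3452 of all 15366 tested genes. The medians of the 22 were -0.04, 0.04 and -0.08. limma voom also called 0 in each, and DESeq2 called Skp1 lower with BRD0705, Csnk1d and Ppp2r1a higher with CHIR, and Tnks2 lower with BRD0705 than with CHIR. Over all genes DESeq2 called 484 with BRD0705, 863 with CHIR and 1032 between inhibitors. Among close relatives of the members, the CHIR log2 fold changes in edgeR were 0.12 for Axin2, a known Wnt target and the second Axin gene, and -0.20 for Apc2. They were 0.18 for the casein kinase gene Csnk1d (adjusted p 0.0995), 0.05 for Csnk1e, and -0.03 for Fbxw11, the second β-TrCP gene. Ctnnb1 was at 0.07 and the tankyrase gene Tnks, whose product marks Axin for turnover, at 0.15, and edgeR called none of these 7.

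Of the 20 genes of the Wnt receptor complex, all tested, 2 fell with CHIR, the frizzled receptor genes Fzd8 and Fzd10, and 0 rose, where 3.78% of all tested genes were called lower. With BRD0705 edgeR, DESeq2 and limma voom called 0. An unadjusted p under 0.05 in edgeR was reached by 2 of the 20 with BRD0705, 7 with CHIR and 9 between inhibitors. Of all 15366 tested genes, 2436, 3148 and 3452 reached it. Fzd10 was at 15.1, 12.4 and 14.2 CPM in control, 16.4, 16.3 and 16.1 CPM with BRD0705, and 10.3, 9.41 and 12.03 CPM with CHIR. The CHIR libraries lay below control and the BRD0705 libraries above it. Fzd10 fell by 0.40 with CHIR (SE 0.103, edgeR adjusted p 0.0270), and was higher with BRD0705 than with CHIR by 0.62 (SE 0.102, edgeR adjusted p 0.00112). The first of these was lost in DESeq2 (adjusted p 0.0503) and in 4 of the 9 fits without 1 library, those without control replicates 1 or 3 or CHIR replicates 1 or 2.

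Fzd8 was at 5.42, 4.21 and 4.48 CPM in control, 4.60, 3.698 and 4.32 CPM with BRD0705, and 3.09, 2.81 and 3.44 CPM with CHIR. Its CHIR libraries lay below all others. Fzd8 fell by 0.59 with CHIR (SE 0.163, edgeR adjusted p 0.0354). That call was lost in DESeq2 (adjusted p 0.0880) and without control replicates 1, 2 or 3 or CHIR replicates 1 or 2. Between inhibitors edgeR called 2 of the 20 receptor complex genes higher with BRD0705, Fzd10 and Fzd2, and 1 lower, Dvl2. Of all tested genes 7.77% were called in that comparison. Fzd2 was higher with BRD0705 than with CHIR by 0.45 (SE 0.0997, edgeR adjusted p 0.00892), also without any one library. Dvl2, which encodes a dishevelled protein that relays the receptor signal, was lower by 0.19 (edgeR adjusted p 0.0498), but held in 2 of the 9 fits without 1 library, those without control replicate 1 or CHIR replicate 2. It was also lost under library size only (adjusted p 0.0913) and with only both inhibitor groups fitted (0.0657). Over all 20 genes of the receptor complex the median log2 fold change was 0.04 with BRD0705, -0.04 with CHIR and 0.10 between inhibitors. Over the 10 frizzled genes, a subset not set in advance, it was 0.08, -0.28 and 0.44. The co-receptor gene Lrp6 was at 0.17 and Dvl2 at 0.16 with CHIR, neither called.

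Of 11 genes for kinases that phosphorylate the inhibitory serine of GSK3, edgeR called 1 in each comparison. Of all tested genes, 1.22% were called with BRD0705, 6.3% with CHIR and 7.77% between inhibitors. Sgk1 was at 125, 133 and 126 CPM in control, 114, 109 and 103 CPM with BRD0705, and 109, 107 and 111 CPM with CHIR. Both inhibitor groups lay below control and overlapped each other. Sgk1 fell by 0.23 with BRD0705 (edgeR adjusted p 0.0452) and by 0.23 with CHIR (edgeR adjusted p 0.0155). With BRD0705 it held in 1 of the 9 fits without 1 library, the one without control replicate 1, and was lost with the replicate block (adjusted p 0.0524), with only those 2 groups fitted (0.0647) and with the GC and length trend removed, without the block (0.0548) or with it (0.0736). With CHIR it was lost without control replicates 2 or 3 or CHIR replicates 1 or 2. Sgk3 was lower with BRD0705 than with CHIR by 0.42 (edgeR adjusted p 0.0416), a call that held in 2 of those 9 fits, without control replicate 1 or CHIR replicate 3. It was lost in DESeq2 (adjusted p 0.0851), under library size only (0.0722), with only both inhibitor groups fitted (0.0703) and with the GC and length trend removed, without the block (0.0801) or with it (0.100). Akt1 and Akt2, for the kinases that pass insulin signals to GSK3, were at 0.09 and 0.07 with CHIR, neither called.

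A feature the Frat genes share, and that the choice of members did not use, is a single exon. Among tested protein-coding genes, 263 have 1 exon in GENCODE vM39 and 13439 have more. This grouping was made after values were seen and is given as counts alone. It was not recounted with the GC and length trend removed, and the classes were not matched for GC content or length. With CHIR, 42 of the 263 were called lower (16%) and 7 higher, with a median log2 fold change of -0.13. Of the 13439 others, 471 were called lower (3.5%) and 354 higher, with a median of -0.0037. With BRD0705, 4 of the 263 were called higher and 1 lower (median 0.01), and of the others 97 higher and 70 lower (median 0.00035). Between inhibitors 50 of the 263 were higher with BRD0705 and 4 lower (median 0.18), and of the others 627 and 402 (median 0.0014). Among the genes described above, Fzd2, Fzd8, Fzd10 and Peg12 also have 1 exon. So do Fzd1 and Fzd9, neither called in any comparison, with CHIR log2 fold changes of -0.16 and -0.41, and the CHIR libraries of Fzd1 overlapped the control. The kinase genes have 12 exons.

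**Figure D5:**
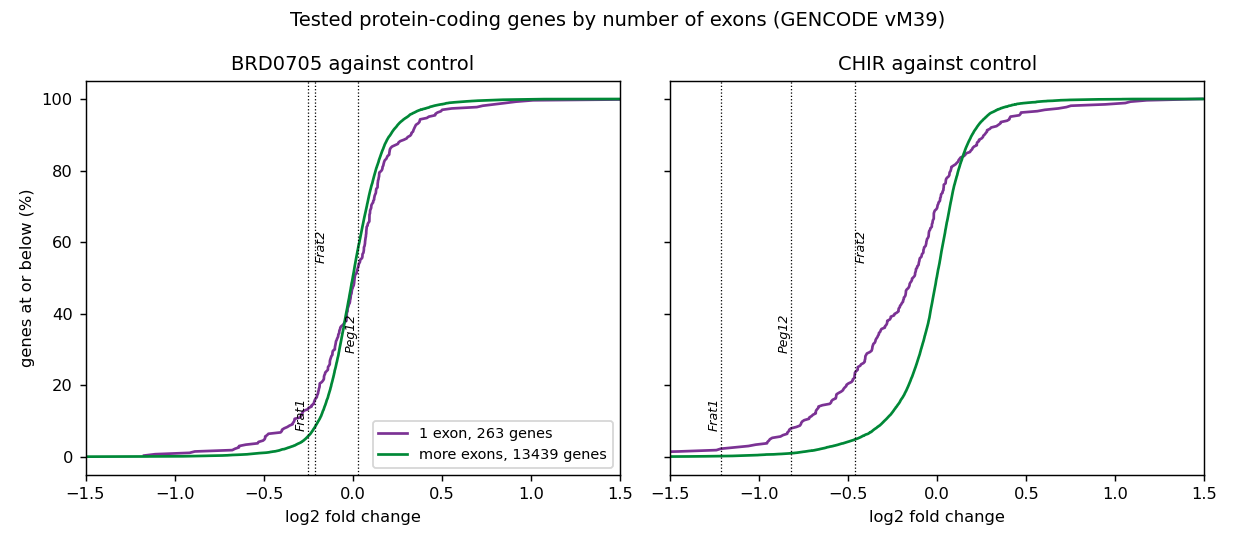
Cumulative percent of genes at or below each log2 fold change, for 263 tested protein-coding genes with 1 exon and 13439 with more exons, in BRD0705 and CHIR against control, with dotted lines at Frat1, Frat2 and Peg12. With CHIR against control the median is -0.13 for genes with 1 exon and -0.0037 for the others, and Frat1 and Frat2 are among the former.

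The genes whose pattern over the 9 libraries was most like that of Gsk3a, by mean absolute difference of centred log2 CPM, were Setd1a (0.0327), Sh3bp1 (0.0331) and Fbxw5 (0.0337), where the median over all genes was 0.163. For Gsk3b they were Tet1 (0.0275), Gstz1 (0.0282) and Zfhx3 (0.0317), beside a median of 0.135. Among the 45 pairs of members the closest were Axin1 and Btrc (0.0348) and then Gsk3b and Apc (0.0398), and the farthest apart were Gsk3a and Frat1 (0.555). Frat1 and Frat2 ranked 37 (0.323). The measure is not scaled by the spread of each gene, so it depends on how much a gene varies over the libraries. Shared regulation was not tested.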

How the data were processed

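RNA was measured in 9 libraries, 3 each for control, BRD0705 and CHIR, grouped by the library descriptions in the labels. The authors deposited raw counts per gene symbol as whole numbers, and a normalized table used here as a signal. The submitters' processing notes name RSEM, DESeq2 and mm10 without a role, so the counts may be rounded estimates. The aligner, annotation and strand setting are not given in the sources used here. Per the labels' protocols the kit depletes ribosomal RNA while the molecule label says polyA RNA, and the series and sample texts name different RNA kits; neither point was resolved.

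The main test was that of edgeR 4.0.16 (R 4.3.3), with filterByExpr with a minimum count of 10, TMM scaling, and the quasi-likelihood test on 3 group means over all 9 libraries (common dispersion 0.00356). Genes were called at a Benjamini-Hochberg adjusted p under 0.05 over all 15366 tested genes, 2-sided. Ratios of counts were compared with exact permutation tests. Depth was 17359422 to 20773337 counts. Lengths and exons were taken from GENCODE vM39 (GRCm39), possibly not the annotation the authors used, and coordinates and promoters from RefSeq on GRCm38.p6. On simulated counts the edgeR step missed part of the changes, more of the smaller ones, and its share of false calls was above the nominal rate, which bears on calls near the threshold.

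All 10 members were named in full, with list genes that passed and 11 fixed relatives or partners. Peg12, the motifs and the exon grouping were added after values were seen. The grouping of the 10 frizzled genes was not set in advance. The members and lists were chosen with earlier results of these data known. Alternatives were DESeq2 1.42.0, limma 3.58.1 (voom, and on log2 of the deposited normalized values plus 1), other scalings and filters, only the groups compared, the replicate block, each library left out and, added after seeing the data, removal of the GC and length trend with splines of 5 degrees of freedom, for which 98.0% of tested genes had values.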

Additional observations from a re-analysis of the deposited data

Results flagged for a closer look

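The effects of both inhibitors differed from each other for Frat1 and for Peg12, by a direct test between inhibitors. The BRD0705 effect minus the CHIR effect was 0.96 on the log2 scale for Frat1 (SE 0.162, edgeR adjusted p 0.00130), with all 3 BRD0705 libraries above all 3 CHIR libraries. It was 0.85 for Peg12 (SE 0.225, edgeR adjusted p 0.0275), again with no overlap, but Peg12 had 20 to 55 counts per library. The Peg12 difference held in 7 of the 9 fits without 1 library, and was lost without BRD0705 replicate 1 or CHIR replicate 1. It was also lost in DESeq2 (adjusted p 0.0643) and with the GC and length trend removed together with the replicate block (edgeR adjusted p 0.0582). Groups of 3 libraries are too small for a check of single outlying libraries.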

How the results depend on the processing

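The Frat1 calls with CHIR and between inhibitors held under all 11 alternatives and in all 9 fits that left out 1 library, with CHIR log2 fold changes of -1.24 to -1.20 over the alternatives. The count of members called with CHIR was 1 in DESeq2 and 1 to 2 with a library left out. The number of genes called with BRD0705 was 484 in DESeq2, 609 without a low-count filter, 110 with the GC and length trend removed together with the replicate block, and 21 to 305 with a library left out. With a library left out it was 514 to 1070 for CHIR and 616 to 1313 between inhibitors. Under library size only, the share of calls that were higher was 26.4% for CHIR (40.0% in the fit reported) and 79.2% between inhibitors (61.8%), and in DESeq2 it was 54.1% for CHIR.

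Values near 0 changed sign. With BRD0705, Gskip was -0.0034 with the replicate block, -0.00038 in limma voom, -0.0018 on the deposited normalized values, -0.011 with the GC and length trend removed and -0.016 with that and the block, and Peg12 was -0.028 and -0.025 in the latter pair. With CHIR, Apc was -0.011 under library size only and -0.018 with the trend removed, with or without the block, Csnk1a1 was -0.024 in each of these, and Sgk3 was 0.0046 in DESeq2, 0.00061 with DESeq2-type size factors and 0.00049 on the normalized values. With a library left out, the BRD0705 values were -0.094 to 0.088 for Gskip, -0.057 to 0.025 for Axin1 and -0.10 to 0.10 for Peg12. The CHIR values were -0.017 to 0.058 for Apc, -0.018 to 0.044 for Csnk1a1, -0.056 to 0.071 for Sgk3, -0.019 to 0.13 for Csnk1e and -0.057 to 0.0059 for Fbxw11, and Gsk3a between inhibitors was -0.13 to 0.015. The log2 Gsk3a to Gsk3b ratio differed from control by -0.11 to 0.11 with BRD0705 and by -0.0094 to 0.21 with CHIR, and the Frat1 to Frat2 ratio by -0.11 to 0.053 with BRD0705. The cause of these changes was not tested.

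Libraries with equal numbers were not alike in how they departed from their group means, with a mean correlation of -0.00119 over 9 pairs, with a range of -0.0897 to 0.0802, so the numbers were not taken as pairs. The replicate block gave 222 genes with BRD0705, 973 with CHIR and 1177 between inhibitors, and 0, 2 and 1 members called. With the block the Dvl2 difference between inhibitors had an edgeR adjusted p of 0.0502. Frat1, Frat2, Gskip, Amer1 and Peg12 had low counts, which limits what could be detected for them.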
